A study of Mus musculus with 12 samples.

Results

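The comparison set the livers of 3 control mice against the hearts of the same mice, which gave 6 of the 12 libraries of the series. They were chosen by their names, Ctrl1_Liver to Ctrl3_Liver and Ctrl1_Heart to Ctrl3_Heart, and the organs of 1 mouse carry the same number. All animals were Swiss Webster mice, an outbred laboratory strain, 6 to 8 weeks old. The labels list no agent for the controls but describe an intraperitoneal injection and a time of 4 h for every sample. The paper states that control animals of its injection experiments received the vehicle, Kolliphor HS 15. The other 6 libraries, used here to select transcripts, to repeat the comparison and in fits of all 12 libraries, came from 3 mice given 200 mg/kg of the Lats kinase inhibitor TDI-011536 (LKI-2 in the labels) 4 h before the organs were taken. Each library was made from the polyadenylated RNA of an organ homogenate, so it averages over all cell types of the organ.

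The liver and the heart are among the most specialized organs of a mammal. Hepatocytes, the main cells of the liver, make most of the proteins of blood plasma and much of the body's metabolic machinery, and they export a large part of what they translate. Cardiomyocytes, which fill most of the volume of the heart, build long-lived contractile filaments, some of them from the longest proteins known, and are packed with mitochondria. Fibroblasts, endothelial cells and resident macrophages occur in both organs.

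The values were reads per transcript as estimated by Salmon, which divides a read among the transcripts that it fits. The files name transcripts by identifiers that no table used here pairs with genes, so the markers of hepatocytes and cardiomyocytes were not analysed here and the transcripts are described by level, length and organ. Of 51884 transcripts, 23251 had at least 10 reads in at least 3 of the 6 libraries and were tested. Among those left out, 12421 had no read in any control library. Just inside this limit lay 4634 transcripts with exactly 3 libraries at 10 reads or more, and just outside lay 2557 transcripts with 2. Of the 4634, 1456 passed through the 3 livers alone and 2038 through the 3 hearts alone, and so had to differ between the organs. Total estimated counts ranged from 24575658 to 30280943 in the livers and from 20074046 to 20533986 in the hearts.

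One library stood apart. Heart transcripts were found at about 1% of their heart level in the liver of control mouse 2, and at far lower levels in the other livers. To measure this without using the control libraries, 121 transcripts were selected in the treated mice, with a mean of at least 100 TPM (a level per length, scaled to the same total in every library) in the hearts and less than 0.1% of that mean in the livers. Their summed level in the liver of control mouse 2 was 0.863% of that in the heart of the same mouse. In mice 1 and 3 it was 0.0627% and 0.0334%. The ratio was nearly the same from transcript to transcript in mouse 2, with a median of 0.875% and quartiles of 0.745% and 0.969%. The 33 of these transcripts whose reads were never divided gave a median of 0.880%. The liver of mouse 2 was the highest of the livers for 118 of the 121.

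**Figure D1:**
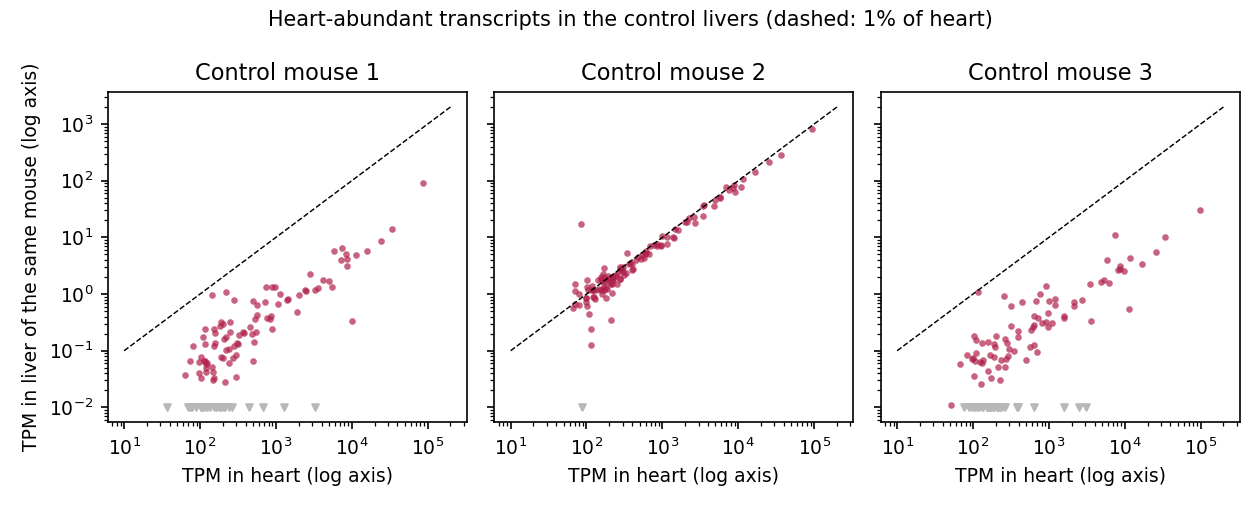
Level of 121 heart-abundant transcripts, selected in the treated mice, in the liver (vertical axis, TPM, log scale) against the heart (horizontal axis, TPM, log scale) of each control mouse; gray triangles mark transcripts under 0.01 TPM in the liver and the dashed line is 1% of the heart level. In mouse 2 the points follow the line, at a median of 0.875%, whereas in mice 1 and 3 they lie at medians of 0.0432% and 0.0279%.

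The opposite was not seen in the hearts. For 196 transcripts selected in the treated mice as abundant in the liver by the same rule, the summed level in the hearts was 0.0197%, 0.0135% and 0.0133% of that in the livers of mice 1, 2 and 3. The origin of the heart transcripts in the liver of mouse 2 was not tested, and the main counts and folds toward the heart are also given without that mouse.

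The organs differed in 9511 of the 23251 transcripts, or 40.9%. By the quasi-likelihood test of edgeR, blocked by mouse and with Benjamini-Hochberg adjusted p below 0.05, 5024 transcripts (21.6% of those tested) were higher in the liver and 4487 (19.3%) were higher in the heart. Among these calls, 382 for the liver and 203 for the heart had 0 reads in every library of the other organ. They are left out of the following counts by fold, although their differences are among the largest. Of the other calls, 3673 were more than 2-fold and 1098 more than 16-fold higher in the liver. Toward the heart these were 3564 and 1274. Without mouse 2, when fewer transcripts were called in all, these were 2164 and 790 for the liver, and for the heart 1947 and 729. Among the 13866 transcripts with at least 10 reads in all 6 libraries, which could not pass the filter through 1 organ alone, 27.2% were called higher in the liver and 21.8% higher in the heart. In a bulk sample, fewer cells of a type and less RNA per cell cannot be told apart.

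**Figure D2:**
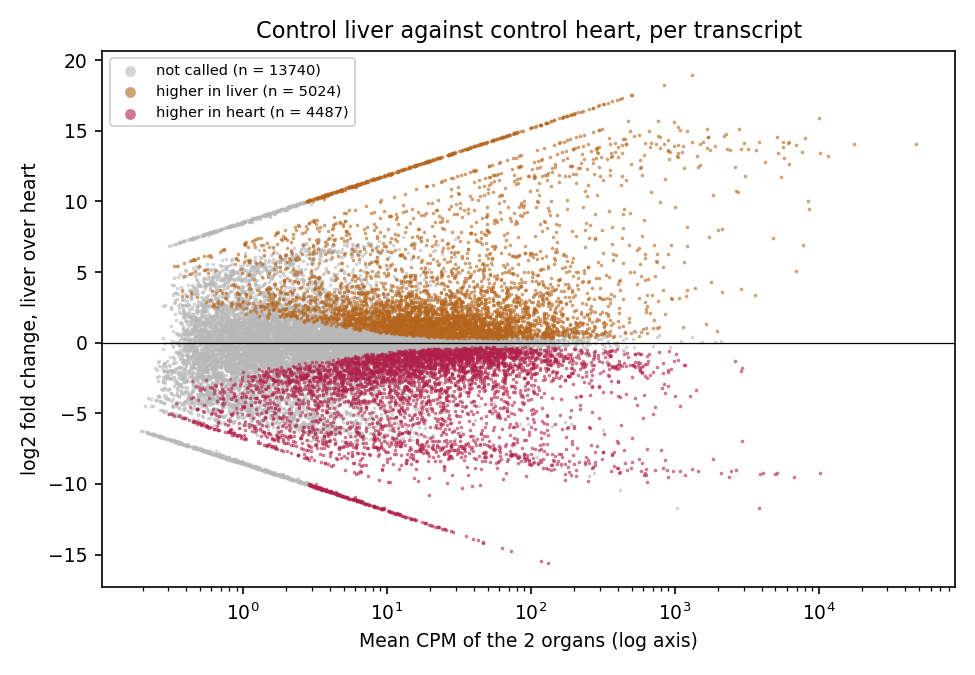
The log2 fold change of each of 23251 transcripts, liver over heart, against its mean CPM (reads relative to a library size scaled by TMM) in the control organs, on a log axis; colors mark an adjusted p under 0.05 and the straight upper and lower edges are transcripts with 0 reads in every library of one organ, whose fitted value depends on a prior count. At the highest levels the points lie mostly above 0, and 79 of the 113 transcripts with a mean of 1000 CPM or more were called higher in the liver.

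The balance between the organs depended on the scaling. TMM, which compares the bulk of the transcripts, scaled the hearts by factors of 1.34 to 1.36 and the livers by 0.731 to 0.753. With total counts alone, the median log2 fold change of all tested transcripts moved by -0.87, the calls became 2902 higher in the liver and 8209 higher in the heart, and 154 transcripts were called in the opposite direction. The directions below are therefore relative to the bulk of the transcripts. The heart also held more calls by DESeq2's Wald test, 8042 against 7355 for the liver. An unblocked fit without the liver of mouse 2 gave 6369 for the heart and 5630 for the liver. Transcripts with undivided reads, tested alone, gave 1481 for the heart and 1457 for the liver. The number of calls also fell whichever mouse was left out. Each of these fits has fewer mice, so the fall cannot be assigned to a particular animal. Without mouse 1, 2 or 3 the calls were 2285, 2570 and 2814 for the liver and 1510, 2266 and 2050 for the heart, and in none of these fits was a transcript called in the opposite direction.

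Without regard to the test, all 3 livers lay above all 3 hearts in 7853 transcripts (33.8%) and all 3 hearts above all 3 livers in 8035 (34.6%). Within the mice, the liver exceeded the heart in each of the 3 for 8752 transcripts, the heart exceeded the liver in each for 8892, and the sign was mixed for 5607. The log2 differences of any pair of mice correlated across transcripts with r between 0.82 and 0.83, a description over 23251 transcripts that are not independent, since isoforms share reads. Similar levels were harder to establish than different ones. For 2958 transcripts (12.7%) the 95% interval of the fold change lay within 2-fold in either direction, and 684 of these were called. For 8742 of the 13740 transcripts that were not called, the interval reached 4-fold or more, so 3 mice left their difference poorly determined.

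The share of transcripts called rose with the level. It was 6.43% for a mean under 1 CPM, 27.3% from 1 to 10, 64.4% from 10 to 100, 83.7% from 100 to 1000 and 94.7% for 1000 CPM or more. The median standard error of the log2 fold change was 1.25 in the lowest of these classes and 0.158 from 10 to 100 CPM. From 1 to 10 CPM more transcripts were called higher in the heart, 1563 against 1236, and from 10 to 100 CPM more were called higher in the liver, 2929 against 2295. In the class of 1000 CPM or more the liver held 79 calls and the heart 28.

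The transcript with the most reads in the liver was uc008yaz.3, which is 2061 nt long and ranked below a 123-nt transcript in TPM. It had 1927100, 2506810 and 1342900 reads in the livers of mice 1, 2 and 3, and 197, 107 and 147 reads in their hearts. It alone took 7.24%, 8.28% and 5.46% of the reads of the livers. The groups lay far apart. Liver over heart came to 14.09 ± 0.66 on the log2 scale (± standard error), at an adjusted p of 0.00218 by edgeR, and the transcript passed under all 16 alternatives. In the treated mice it had 1635250, 1904600 and 2484560 reads in the livers and 75, 280 and 418 in the hearts.

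The largest fold change toward the liver among transcripts of at least 10 CPM was that of uc007svw.3, 3161 nt long. It had 53980, 72829 and 35047 reads in the livers and 0 in each heart, which is at least 73388-fold higher when the hearts together are set to 3 reads. Such bounds cover counting error only. It passed the filter through the livers alone and was picked for its fold, so it had to differ and its values are a description. Its reads were in part divided with other transcripts, and in the hearts of the treated mice it had 24, 20 and 19 reads.

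The heart transcript with the highest CPM was uc007txr.2, 6015 nt long. It had 490587, 555686 and 599673 reads in the hearts, 2.43%, 2.71% and 2.99% of each library. In the livers it had 287, 6140 and 261 reads, so the liver of mouse 2 lay far above the others but far below every heart. Liver over heart came to -9.22 ± 1.56 on the log2 scale (± standard error), at an adjusted p of 0.0227 by edgeR. Without mouse 2 it was -10.49 with an adjusted p of 0.0139 from edgeR, and without mouse 1 or mouse 3 it did not pass, with log2 fold changes of -8.39 and -8.22 and adjusted p of 0.108 and 0.0943 by edgeR. In the treated livers it had 5, 10 and 34 reads.

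The largest fold change toward the heart by the same rule was that of uc029rpl.2, 3336 nt long, with 8246, 6381 and 6872 reads in the hearts and 0 in each liver. With the livers together set to 3 reads, this was at least 5268-fold higher in the heart, a bound that does not cover the division of reads. Its 0 in the liver of mouse 2 differed from the 121 heart-abundant transcripts, which lay there at a median of 0.875% of their heart level. The reason was not tested. It passed the filter through the hearts alone and was picked in the same way, so these values too are a description. Its reads too were divided, and the livers of the treated mice had 66, 810 and 1. The count of 0 was thus not found in other livers, and in the treated mice the adjusted p of edgeR was 0.0949.

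The fold changes toward the heart were smaller with mouse 2 than without it. Of the 121 heart-abundant transcripts, 119 were tested and 116 were called higher in the heart. Their median log2 fold change was -8.46 with all mice and -10.50 without mouse 2, with 117 called. Of the 196 liver-abundant transcripts, 195 were tested and 194 were called higher in the liver, with a median log2 fold change of 13.92, and 13.59 without mouse 2. Most of each list was therefore called, against 19.3% and 21.6% of all tested transcripts in the same direction. These lists were selected for their organ in the treated mice.

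Reads were concentrated in fewer transcripts in the liver than in the heart. The 10 most abundant transcripts of each library held 21.3%, 19.2% and 22.0% of the reads in the livers, and 12.3%, 12.6% and 12.7% in the hearts. The top 100 held 49.0% ± 0.811 (SD, n = 3) in the liver and 31.0% ± 0.125 (SD, n = 3) in the heart. To reach 50% of the reads took 103, 118 and 109 transcripts in the livers and 455, 456 and 451 in the hearts. The groups did not overlap in any of these measures, and with 3 libraries against 3 the two-sided exact permutation test gave p = 0.1, the smallest that it can give.

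**Figure D3:**
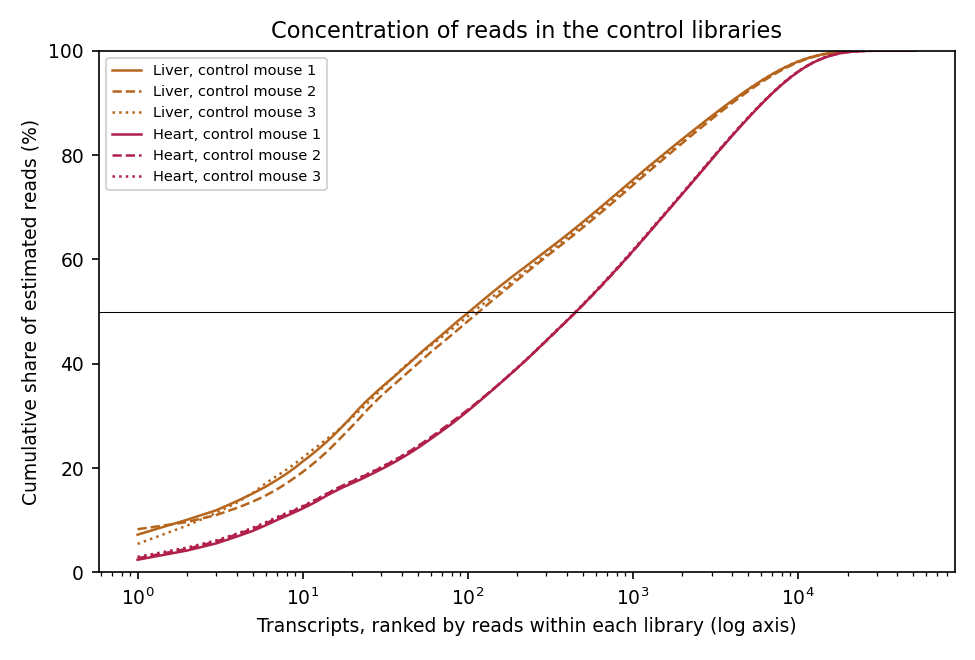
Cumulative share of estimated reads (vertical axis, %) held by the transcripts of each control library, ranked from the most abundant (horizontal axis, log scale), with 3 livers in brown and 3 hearts in red; the horizontal line marks 50%. The livers reach 50% at 103 to 118 transcripts and the hearts at 451 to 456.

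In levels per length the difference depended on how many transcripts were taken. The top transcript by TPM held 14.1%, 15.7% and 10.7% of the liver and 13.1%, 12.5% and 10.9% of the heart, and the groups overlapped. The top 10 held 38.3%, 34.7% and 38.4% against 34.0%, 34.5% and 33.5%, a narrow gap in mouse 2. The top 100 transcripts by TPM held 65.3% ± 1.28 (SD, n = 3) of the liver and 56.7% ± 0.586 (SD, n = 3) of the heart. For the top 100 the gap was wider, 60.7% against 45.9%, when transcripts under 300 nt were left out. The top 10 then held 30.1%, 24.5% and 32.8% in the livers against 18.0%, 18.7% and 18.5% in the hearts, also a wider gap. The TPM of very short transcripts rests on effective lengths of a few bases. Transcripts under 300 nt held 14.7% ± 2.55 (SD, n = 3) of the TPM in the liver and 23.8% ± 0.683 (SD, n = 3) in the heart. A single transcript of 123 nt, whose effective length is given as 5.13, ranked first by TPM in both organs with 14299 to 23441 reads in the livers and 10942 to 13862 in the hearts.

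More transcripts were detected in the heart. At least 10 reads were found for 20206, 20951 and 19765 transcripts in the livers and for 21957, 22090 and 21769 in the hearts, although the liver libraries were deeper. Without mouse 2 the difference, liver minus heart, was -1877.5, against -1631 with all mice. With counts rounded to whole reads, as thinning requires, the means at full depth were 20431 ± 596 (SD, n = 3) in the liver and 22080 ± 145 (SD, n = 3) in the heart. After thinning these to 20073932 reads per library the means were 19423 ± 258 (SD, n = 3) in the liver and 22052 ± 114 (SD, n = 3) in the heart. At a TPM of at least 1 they were 13572 ± 364 (SD, n = 3) and 16423 ± 100 (SD, n = 3). The groups did not overlap in any of these counts (two-sided exact permutation test, p = 0.1, the smallest possible). Thinning equalizes total reads, but the top 100 transcripts held 49.0% of the reads in the liver and 31.0% in the heart. Fewer reads were thus left for the other transcripts of the liver, and the part of this in the counts was not tested.

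Most of the RNA of each organ lay in transcripts called for that organ. Transcripts called higher in the liver held 81.7% ± 0.635 (SD, n = 3) of the liver's reads and 12.9% ± 0.206 (SD, n = 3) of the heart's. Those called higher in the heart held 65.1% ± 0.334 (SD, n = 3) of the heart's reads and 6.43% ± 0.295 (SD, n = 3) of the liver's. Tested transcripts without a call took 11.4% of the reads in the liver and 21.7% in the heart. The calls were made on the same libraries, so these shares are a description.

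The abundant transcripts were mostly different. Of the 10 highest by mean TPM, 1 was shared, the one of 123 nt. Of the top 100, 13 were shared, and of the top 1000, 452. Apart from the 123-nt transcript, the top 10 of the liver had mean levels of 13615 to 38182 TPM in the livers and 0.732 to 5.52 TPM in the hearts. Those of the heart had 8592 to 93444 TPM in the hearts. In the livers of mice 1 and 3 they lay between 0.335 and 89.5 TPM, and in the liver of mouse 2 between 63.6 and 810 TPM. The upper ends are those of a transcript of 168 nt, whose effective length is given as 7.16. The next highest, of 633 nt, had a mean of 34742.5 TPM in the hearts. It had 14.1, 286 and 10.1 TPM in the livers of mice 1, 2 and 3. All 9 of these heart transcripts were highest in the liver of mouse 2 among the 3 livers.

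The leading transcripts varied more between mice in the liver than in the heart. Among the top 10, the coefficient of variation over 3 mice ranged from 5.99% to 40.5% in the liver and from 0.312% to 9.31% in the heart. In the liver, the transcripts of 907, 884, 719, 889, 881 and 432 nt had their lowest level in mouse 2. The transcript of 907 nt had 42030, 21080 and 50741 TPM in mice 1, 2 and 3, and that of 881 nt had 27659, 12096 and 28347. The leading transcript of 2061 nt ran the other way, with 38548, 47413 and 28586 TPM. In the hearts, none of these transcripts exceeded 8.24 TPM.

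**Figure D4:**
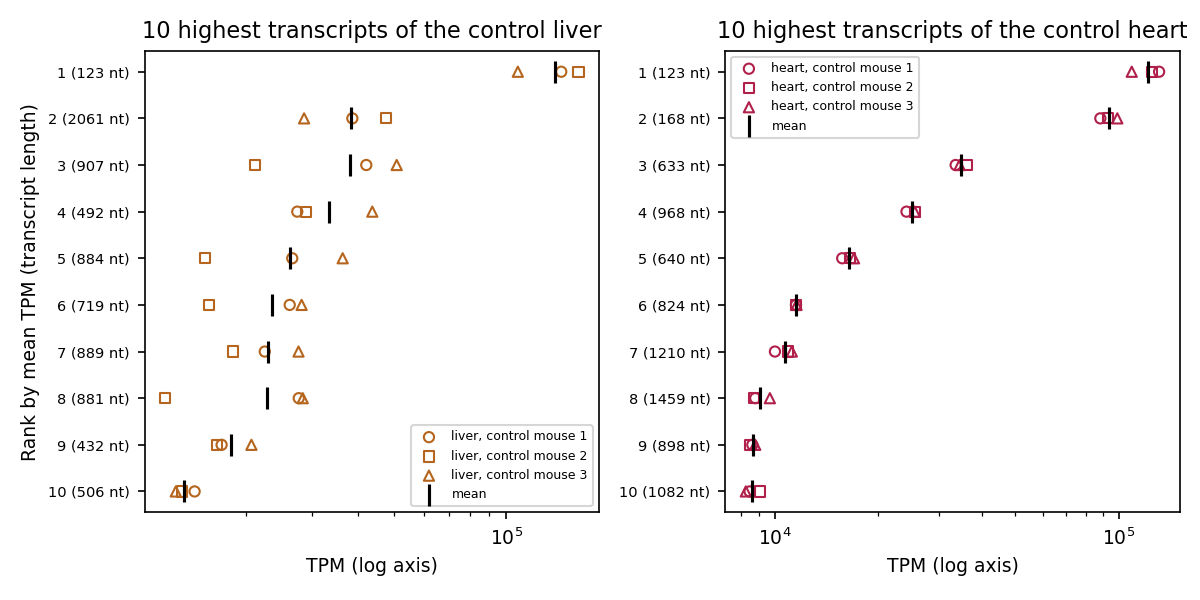
Level of the 10 highest transcripts by mean TPM (horizontal axis, log scale) in the control livers (left, brown) and control hearts (right, red); symbols are the 3 mice, bars their mean, and labels give the rank and the length in nt. The symbols spread widely in the liver and nearly coincide in the heart, where the coefficient of variation ranged from 0.312% to 9.31%.

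The larger spread of the liver held across the tested transcripts. The median standard deviation between mice was 0.34 in the liver and 0.24 in the heart on the log2 scale, a ratio of 1.39, and leaving out a mouse gave ratios of 1.36 to 1.49. For the 3651 transcripts with undivided reads the ratio was 1.69. Among transcripts of at least 100 CPM in the organ, 72 of 1566 (4.60%) in the liver and 18 of 1183 (1.52%) in the heart differed by more than 2-fold between the highest and the lowest mouse. For undivided transcripts these were 12 of 522 and 1 of 378. After TMM scaling the effective library size was 17968152 to 22765692 in the livers and 26831302 to 27659125 in the hearts, so the livers had fewer reads for the bulk of transcripts. The part of this in the spread was not tested.

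A few transcripts were present in 1 mouse and absent from another. Of 3392 transcripts with at least 1000 reads in some liver, 4 had 0 reads in another liver, as had 1 of 3531 in the heart. None of these 5 was classed as undivided, a class that by rule excludes counts of 100000 or more. The largest, 881 nt long, had 153013 reads in the liver of mouse 3 (0.623% of the library) and 0 in those of mice 1 and 2, and it was therefore not tested. In the treated mice it had 285169 reads in 1 liver and 0 in the others.

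Transcripts with reads in only 1 organ were counted. At least 10 reads in each liver and 0 in each heart were found for 639 transcripts, 117 of them with at least 1000 reads in each liver. The reverse was found for 710 transcripts, 16 of them with at least 1000 reads in each heart. Without mouse 2 the counts were 948 and 1451, and 87 of the latter had at least 1000 reads in each remaining heart. Without mouse 1 they were 1001 and 1162, and without mouse 3 they were 1018 and 1164. A limit of 3 reads in place of 0 gave 1032 and 1243. A count of 0 allows up to 3 reads, and these counts cover counting error only. Of the 639 transcripts of the liver, 382 were called and 78 had whole counts. Of the 710 of the heart, 203 were called and 79 had whole counts. For the rest a 0 can also depend on the division of reads, which was not tested.

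Transcripts higher in the heart were longer. The median length was 3053 nt for those called higher in the heart, 2475.5 nt for those called higher in the liver and 2803 nt for all tested. The share called higher in the liver was 27.2% among transcripts of 500 to 1000 nt, 26.2% from 1000 to 2000, 21.9% from 2000 to 4000, 16.8% from 4000 to 8000 and 12.5% at 8000 nt or more. The share called higher in the heart was 18.1%, 16.6%, 18.3%, 22.7% and 29.3% in the same order. In the shortest class, under 500 nt, the shares were 16.3% and 15.2% of 369 transcripts.

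**Figure D5:**
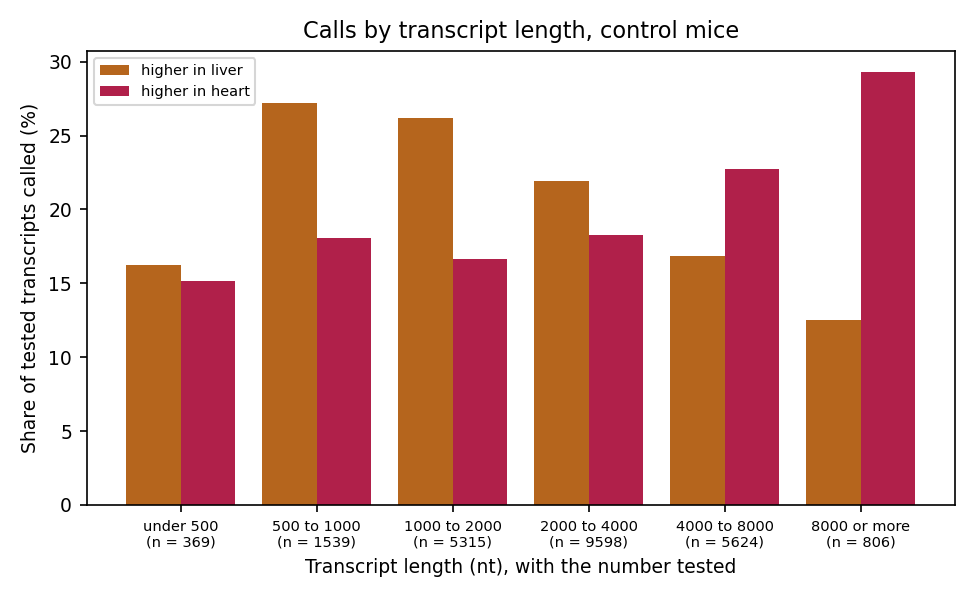
Share of tested transcripts called higher in the control liver (brown) and higher in the control heart (red), in %, by class of transcript length in nt; n is the number tested in each class. The liver share falls from 27.2% at 500 to 1000 nt to 12.5% at 8000 nt or more, and the heart share rises to 29.3%.

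The median log2 fold change went from 0.24 for 500 to 1000 nt to -0.66 for 8000 nt or more. With total counts alone, which moves every fold change by about the same amount, the medians were -0.62 and -1.53 and the heart share was the larger in each class. Within each class of mean CPM the transcripts called for the heart had the longer median, and the difference, liver minus heart, lay between -746.5 and -249 nt. For transcripts with undivided reads, tested alone, it was -208 nt. Isoforms of a gene share sequence and are not independent.

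The length difference extended to the reads but less to the levels. The read-weighted mean length was 2340, 2446 and 2310 nt in the livers and 3128, 3211 and 3284 nt in the hearts, without overlap (two-sided exact permutation test, p = 0.1, the smallest possible). Transcripts of 8000 nt or more took 1.36% ± 0.0406 (SD, n = 3) of the reads in the liver and 3.97% ± 0.317 (SD, n = 3) in the heart. Weighted by TPM, which counts molecules rather than bases, the mean lengths overlapped, at 1214 ± 45.0 nt (SD, n = 3) in the liver and 1228 ± 25.7 nt (SD, n = 3) in the heart (two-sided exact permutation test, p = 0.7). Without transcripts under 300 nt they were 1402 ± 87.8 nt (SD, n = 3) and 1563 ± 25.5 nt (SD, n = 3) and did not overlap (two-sided exact permutation test, p = 0.1).

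Transcripts with undivided reads were called more often. Of the 3651 with whole counts in all 6 libraries, 59.8% were called, against 37.4% of the 19600 with divided counts. Their median standard error was 0.22 against 0.48 on the log2 scale, while the median absolute log2 fold changes were 1.38 and 1.54. Undivided transcripts were 12.7% of those under 1 CPM, 10.9% from 1 to 10, 19.8% from 10 to 100 and 33.8% from 100 to 1000. At 1000 CPM or more they were 23.0%, but counts of 100000 or more were classed as divided by rule, which can lower this share. The part of the level in the difference in calls was not tested.

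The comparison was repeated in the treated mice, which share no library with the control mice. There the same test called 3885 transcripts (17.4% of 22316) higher in the liver and 3763 (16.9%) higher in the heart. Of the 5024 called higher in the control liver, 3198 (63.7%) were called in the same direction in the treated mice and 11 in the opposite one. These 3198 were 82.3% of the treated calls for the liver. Of the 4487 called higher in the control heart, 3032 (67.6%) were called in the same direction, which was 80.6% of the treated calls for the heart, and 9 were called in the opposite one. Without treated mouse 3, whose heart library was the shallowest of the series, 2202 and 1936 were called in the same direction. Over the 21062 transcripts tested in both sets of mice, the log2 fold changes of liver over heart had a Pearson correlation of 0.893, given as a description. The gradient with length was again present, with a median log2 fold change of 0.20 for 500 to 1000 nt and -0.48 for 8000 nt or more. A test of the organ difference itself between treated and control mice, over 26320 transcripts, called 10 (0.038%) with a higher and 3 (0.0114%) with a lower ratio of liver to heart in the treated mice, 0.0494% in all.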

How the data were processed

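The authors deposited estimated counts (NumReads) and TPM for 51884 transcripts. Salmon 0.8.2, DESeq2 1.20.0 and mm10 are named in the submitters' processing notes, and the release of the transcript set was not found there. These deposited estimated counts carry fractions of reads and no normalization. Every file stacks 2 tables, of which the second served as an alternative. Counts were rounded to whole numbers. Transcripts reaching 10 reads in 3 or more of the 6 control libraries were scaled by TMM and tested with edgeR 4.0.16 (quasi-likelihood test, two-sided, Benjamini-Hochberg adjustment over all tested transcripts) in R 4.3.3, with limma 3.58.1 and DESeq2 1.42.0 as alternatives. A standard error was obtained from the log2 fold change and its F. Per-library measures used NumPy 2.4.6 and SciPy 1.17.1. The fits were also run on simulated counts with known changes. These changes were balanced between the organs, with no effect of the mouse and no heart transcripts added to a liver. The simulation therefore does not cover those features of the data.

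The mouse was a block because liver and heart of 1 number come from 1 animal by their names. Deviations of same-numbered livers and hearts from the organ means correlated only between -0.01 and 0.02, so the pairing rests on the design. The p-values of the blocked edgeR fits set the organ difference against its variation between these 3 mice, with a dispersion drawn partly from other transcripts. Counts were called whole within 1e-06 and below 100000. For each organ the named transcripts are the called one with the highest mean CPM and the one with the largest fold change at 10 CPM or more without overlap. The transcript identifiers could not be paired with genes, so the gene lists, the marker lists and all sequences were not analysed here. The members, lists and tests were chosen with earlier results of these data known, and the lists of 121 and 196 transcripts, the cut of 300 nt, the length medians within CPM classes, the counts by fold size or absence without a mouse, the unblocked fit without 1 liver and the rounded counts after seeing these libraries.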

Additional observations from a re-analysis of the deposited data

Results flagged for a closer look

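The organ difference itself was compared between treated and control mice as an interaction, with the mouse as a block, over 26320 transcripts. The log2 fold change of liver over heart was higher in the treated mice for 10 transcripts and lower for 3, with Benjamini-Hochberg adjusted p below 0.05 by the quasi-likelihood test of edgeR, a difference between the 2 sets of mice. These are 0.0494% of those tested, and 1482 and 1107 had an unadjusted p under 0.05. The adjusted p was 0.925 for uc008yaz.3, 0.119 for uc007svw.3, 0.367 for uc007txr.2 and 0.681 for uc029rpl.2 in this test of edgeR.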

How the results depend on the processing

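Counts of calls for the liver and for the heart were within 1.5 times of 5024 and 4487 with DESeq2's size factors, no filter, at least 50 reads, filterByExpr, limma-voom, the second table, all 12 libraries in 1 fit and bias-adjusted deviances. With no replicate block they were 6376 and 6297, so the pairing by mouse lowered both without a change of direction. Total counts alone gave 2902 and 8209, whole counts alone 1457 and 1481 of 3651 tested, and an adjusted p under 0.01 gave 2261 and 1618. DESeq2's Wald test gave 7355 for the liver and 8042 for the heart. Leaving out a library or mouse gave 2285 to 5630 for the liver and 1510 to 6369 for the heart, the upper ends from an unblocked fit without the liver of mouse 2. The length difference, liver minus heart, was -577.5 nt and ranged from -812 to -658.5 without a mouse, and it was -208 with whole counts. Transcripts absent from the other organ numbered 1032 and 1243 at a limit of 3 reads, and 948 to 1018 and 1162 to 1451 without a mouse. The ratio of spreads was 1.49 at 50 reads and 1.69 with whole counts, and 1.36 to 1.49 without a mouse. Without treated mouse 3, 1936 heart calls were repeated. Some settings have fewer samples or transcripts by construction, and for the rest the cause was not tested. Of 64 values for the 4 named transcripts, 59 passed, 5 did not, and none reversed. Under 1 CPM the median standard error was 1.25 on the log2 scale. Most transcripts were classed as divided here, as in every other class of mean CPM. In the highest class this is partly by rule, since counts of 100000 or more were never classed as whole.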
